A study of Mus musculus with 8 samples.

Results

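The collagen genes of the tongue epithelium were compared between mice with and without an induced Bmi-1 construct. Collagen genes were chosen by symbol, as Col followed by a chain type number, the letter a and a chain number, which took 39 of the 15540 genes in the authors' deposited table. No measured value entered this choice, but the family was picked with results of this comparison known, so its counts and calls are given as a description. RNA was sequenced from tongue epithelium of C57BL/6 mice that all carried both K14-rtTA and TRE-FLBmi-1, together named KrTB. The transactivator rtTA is made in basal keratinocytes, from the keratin 14 promoter, and binds the TRE element and switches on the Bmi-1 construct when doxycycline is present. The KrTB group comprised 4 libraries from mice on plain water, and the KrTB+DOX group comprised 4 libraries from mice whose water held 2 mg/mL doxycycline. No group given doxycycline without the transgenes was analysed here, so doxycycline and the construct cannot be told apart, and the sources used here state neither age nor sex. The only values used were those of the authors' limma comparison of these groups, so the level in each library and the depth of each library are unknown, and no library could be plotted or left out. The table does not state the direction of its fold changes: it was read from the induced gene Bmi1, which stood 42.8-fold higher at a log2 fold change of 5.42 in the authors' deposited table. A total of 6 other mouse collagen genes (Col2a1, Col6a4, Col9a1, Col10a1, Col19a1 and Col21a1) were not analysed here.

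Collagens are secreted or membrane-bound proteins in which 3 chains wind into a triple helix, and glycine recurs in the helix at a spacing of 3 residues. Fibrillar collagens build the tensile fibrils of connective tissue, type IV collagens build the sheet of basement membranes, and type VI collagens form beaded filaments that link cells to the fibrils. FACIT collagens sit on fibril surfaces, transmembrane collagens are anchored in the cell membrane, and the multiplexins line basement membrane zones. In stratified epithelia the keratinocytes make type XVII collagen of hemidesmosomes and type VII collagen of anchoring fibrils, whereas fibroblasts beneath make most fibrillar collagen.

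Of the 39 collagen genes, 18 fell and 1 rose in KrTB+DOX at an adjusted p under 0.05 in the authors' deposited table. Over all genes the same rule called 4.31% lower and 3.82% higher. The median log2 fold change of the 39 collagen genes was -0.74 in the authors' deposited table, against -0.01 over all genes. Below 0 lay 31 of the 39, against 51.2% of all genes. An unadjusted p under 0.05 was found for 28 of the 39, against 25.2% of all genes. At least 2-fold decreases made up 9 of the 18, and the smallest called decrease was -0.50 (Col27a1) in log2 units from the authors' deposited table. The share of such large decreases among all called genes was not counted, so the 9 are a description only. The 18 decreases lay in fibrillar, beaded filament, basement membrane network, short-chain, multiplexin and FACIT collagens and in Col28a1. The only increase was in a transmembrane collagen, Col13a1. Tested against a 1.2-fold change instead of no change, 8 collagens were lower and 1 higher, with 0.759% and 0.669% of all genes called. At an adjusted p under 0.01, 8 collagens were lower, against 1.01% of all genes. The intervals below are 95% confidence intervals from each gene's standard error (SE), which was computed as the deposited log2 fold change over its t, and CPM are read counts scaled to a common library total.

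**Figure D1:**
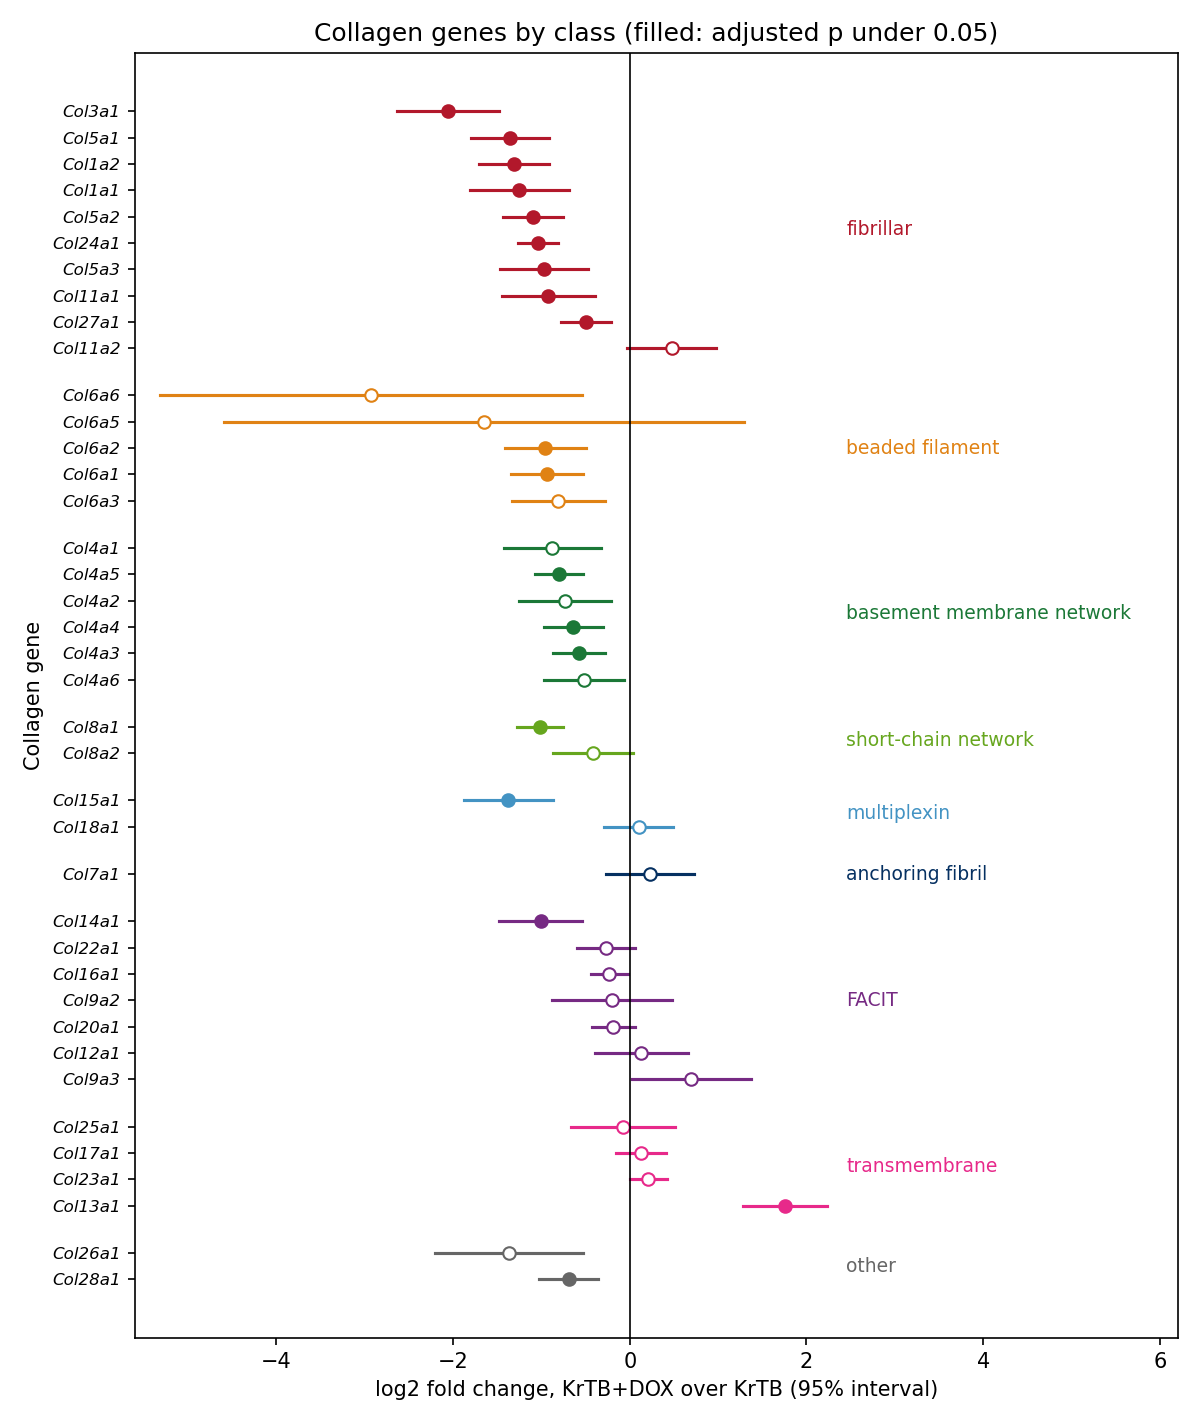
Log2 fold change of each of the 39 collagen genes (KrTB+DOX over KrTB, points) with its 95% interval (lines), grouped and coloured by class, 4 libraries a group. Filled points had an adjusted p under 0.05 in the authors' deposited table. Of 10 fibrillar collagens 9 lie filled and left of 0, and Col13a1 is the only filled point to the right.

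The coding sequences set the fibrillar collagens apart by the length of the glycine repeat, which the choice of genes did not use. Glycine is encoded by GGN codons, and a run was counted where GGN stood at a spacing of 3 codons without a break in the GENCODE M21 coding sequence. The longest run held 216 to 344 GGN codons in the 10 fibrillar collagens and 23 to 113 in the other 29. It held 87 in Col6a1 and Col6a2 and 39 to 66 in the 6 type IV genes, whose helices are known for many interruptions. Stretches of 18 codons are shown to let the eye compare an unbroken repeat (Col3a1, codons 680 to 697, and Col6a1, codons 385 to 402) with the end of a repeat (Col4a1, codons 154 to 171, and Col17a1, codons 807 to 824). Capitals mark GGN codons.
Col3a1: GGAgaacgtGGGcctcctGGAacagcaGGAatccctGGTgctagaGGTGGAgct
Col6a1: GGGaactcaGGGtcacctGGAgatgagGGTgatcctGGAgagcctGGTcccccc
Col4a1: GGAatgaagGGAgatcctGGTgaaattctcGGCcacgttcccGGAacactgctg
Col17a1: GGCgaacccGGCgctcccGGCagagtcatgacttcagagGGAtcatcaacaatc
The 10 collagens with a run of at least 200 are the fibrillar class, so their count is the class count and not a separate result. Of these 10, 9 fell, where 4.31% of all genes did. The median log2 fold change over the 10 was -1.07 in the authors' deposited table. Of the other 29, 9 fell and 1 rose, with a median of -0.58. No test of this difference was run.

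**Figure D2:**
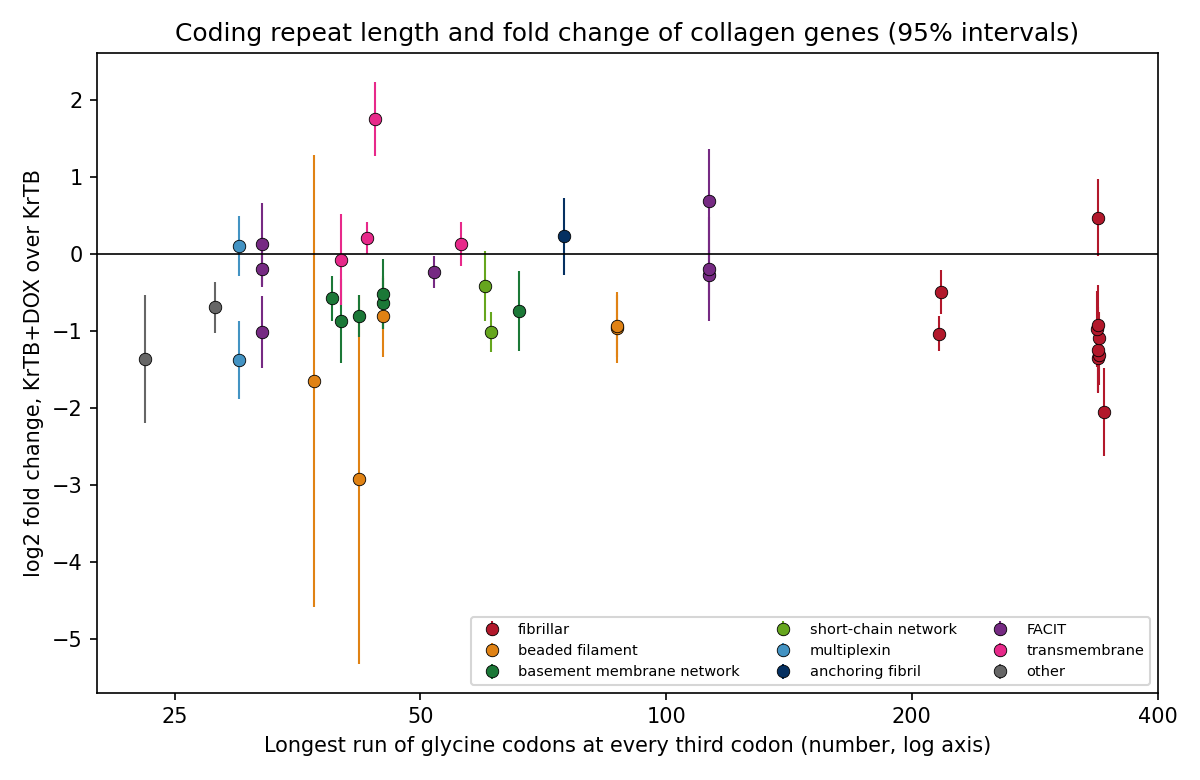
Log2 fold change (vertical axis, KrTB+DOX over KrTB, with 95% intervals) against the longest run of GGN codons at a spacing of 3 codons (horizontal log axis) for the 39 collagen genes, coloured by class. The fibrillar genes stand apart on the right at 216 to 344 codons, and all of them but Col11a2 lie below 0.

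Of the fibrillar collagens 9 of 10 fell and 0 rose, where 4.31% of all genes fell and 3.82% rose. Col3a1, the chain of type III collagen, which is abundant in pliable connective tissue, had the largest called decrease of the family. In the authors' deposited table it was 4.16-fold lower with doxycycline (log2 change -2.05 with an SE of 0.26, adjusted p = 0.00276), at a mean of 9.11 log2 CPM. Its interval, from -2.63 to -1.48, did not overlap that of Col5a2 (-1.44 to -0.75), which lies 24614 bases away on chromosome 1 on the opposite strand. Col5a2, a chain of type V collagen, which starts fibrils and sets their diameter, fell 2.14-fold in the authors' deposited table (log2 change -1.10 with an SE of 0.15, adjusted p = 0.00412).

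The chains of type I collagen, the main protein of tensile fibrils, fell by like amounts. Col1a1 was 2.38-fold lower (log2 change -1.25 with an SE of 0.25, adjusted p = 0.0186) from the authors' deposited table. Col1a2 was 2.47-fold lower (log2 change -1.31 with an SE of 0.18, adjusted p = 0.00385), 0.06 from its partner on the log2 scale. Of the other type V chains, Col5a1 fell by 1.36 (SE 0.20, adjusted p = 0.00515) and Col5a3 by 0.97 (SE 0.22, adjusted p = 0.0286) in log2 units from the authors' deposited table. The intervals of Col5a1, Col5a2 and Col5a3 overlapped, and the chains spanned 0.38 on the log2 scale.

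The remaining fibrillar genes had lower means. Col24a1, whose helix is interrupted and shorter, had the smallest p of the family at a log2 change of -1.04 (with an SE of 0.10, adjusted p = 0.00107, mean 3.78 log2 CPM) from the authors' deposited table. Col27a1, of the same subgroup and known from cartilage, fell by 0.50 (SE 0.13, adjusted p = 0.0446), and its interval (-0.78 to -0.21) did not overlap that of Col24a1 (-1.26 to -0.81). Col11a1 fell by 0.92 (SE 0.23, adjusted p = 0.0412) at a mean of 0.92 log2 CPM from the authors' deposited table. Col11a2, the other type XI chain in the table, had a log2 change of 0.47 (with an SE of 0.22, adjusted p = 0.22), with intervals of the type XI chains that did not overlap. Tested against a 1.2-fold change, Col1a1 (adjusted p = 0.0795), Col5a3 (0.158), Col11a1 (0.239) and Col27a1 (0.606) no longer passed.

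Promoter windows are shown for Col3a1 and Col1a2, the fibrillar genes with the highest means, from 250 bases before to 50 after the RefSeq start on GRCm38.p6, each on its plus strand. Col3a1 is at chr1:45311288-45311587 and Col1a2 at chr6:4505368-4505667. Capitals mark any match, on either strand, to CCAAT (the CCAAT box), TATAAA (the TATA box), GGGCGG (the GC box), TGANTCA (the AP-1 site) or ACGTG (the core of hypoxia response elements).
Col3a1: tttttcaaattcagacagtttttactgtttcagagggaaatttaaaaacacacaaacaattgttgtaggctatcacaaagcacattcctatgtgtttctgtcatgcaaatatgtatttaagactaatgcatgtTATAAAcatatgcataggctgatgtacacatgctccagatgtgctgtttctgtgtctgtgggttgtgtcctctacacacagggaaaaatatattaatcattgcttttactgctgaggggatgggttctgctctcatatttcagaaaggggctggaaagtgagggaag
Col1a2: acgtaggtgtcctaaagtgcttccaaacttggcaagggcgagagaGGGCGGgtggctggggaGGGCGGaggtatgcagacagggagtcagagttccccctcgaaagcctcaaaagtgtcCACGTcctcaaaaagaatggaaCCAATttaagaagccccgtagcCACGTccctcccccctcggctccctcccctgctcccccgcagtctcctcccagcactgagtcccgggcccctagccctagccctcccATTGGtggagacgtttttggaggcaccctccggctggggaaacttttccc
The Col3a1 window held 1 match, TATAAA at -117, and the Col1a2 window held 6, with GC boxes at -205 and -188 and CCAAT matches at -109 and 1. Position 1 is the start and the base before it is -1. Among 31 collagen genes with a window, GGGCGG was in 67.7%, CCAAT in 35.5%, ACGTG in 16.1%, TATAAA in 12.9% and TGANTCA in 3.23%. Among the 11248 windows of genes in the deposited table the shares were 62.1%, 38%, 24.8%, 7.99% and 5.42%, and over all 27025 genes with a window they were 35.9%, 37.9%, 19.7%, 14.2% and 7.93%. A match describes letters only, and no difference in share was tested. The median GC content was 61% in the collagen windows and 60.7% in those of all genes in the table.

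Of 5 chains of type VI collagen, whose beaded filaments surround muscle fibres and anchor fibroblasts, 2 fell and 0 rose. The shares over all genes were 4.31% lower and 3.82% higher. Col6a1 fell by 0.93 (SE 0.18, adjusted p = 0.0167) and Col6a2 by 0.96 (SE 0.21, adjusted p = 0.0242) in log2 units from the authors' deposited table. These neighbours lie 85161 bases apart on chromosome 10 on the same strand. Col6a3, which joins them in the common heterotrimer, stood at -0.81 (SE 0.24, adjusted p = 0.0658) and did not pass. The trimer's chains spanned 0.15 on the log2 scale. The alternative chains Col6a6 (log2 fold change -2.93, interval -5.32 to -0.54, adjusted p = 0.122) and Col6a5 (-1.65, interval -4.59 to 1.29, adjusted p = 0.465) had wide intervals at means of -0.01 and -1.14 log2 CPM from the authors' deposited table. Neither Col6a1 (adjusted p = 0.10) nor Col6a2 (0.133) passed when tested against a 1.2-fold change.

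The type IV collagens all lay below 0, against 51.2% of all genes. Of the 6, 3 were called lower, where 4.31% of all genes were. The type IV genes lie as head-to-head neighbours that are read in opposite directions. Col4a5 fell by 0.80 (SE 0.12, adjusted p = 0.00582), Col4a4 by 0.64 (SE 0.15, adjusted p = 0.0307) and Col4a3 by 0.58 (SE 0.13, adjusted p = 0.03) from the authors' deposited table. These can form the trimer of specialised basement membranes such as those of the kidney, and they spanned 0.23 on the log2 scale. Per kilobase of exon, Col4a5 stood at 2.15 log2 CPM and Col4a6 at 0.79, against -1.01 for Col4a3 and -1.59 for Col4a4. Which trimers the chains formed in this tissue was not measured. Col4a3 and Col4a4 lie 71 bases apart on chromosome 1 and differed by 0.06. Col4a6, 1308 bases from Col4a5 on the X chromosome, stood at -0.52 (SE 0.20, adjusted p = 0.148). Against a 1.2-fold change Col4a3 (adjusted p = 0.358) and Col4a4 (0.300) were not called, while Col4a5 was among the 8 that were.

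Col4a1 and Col4a2, which form the ubiquitous type IV trimer, had the highest levels per kilobase of the type IV genes and did not pass. Col4a1 stood at -0.88 (SE 0.24, interval -1.42 to -0.33, adjusted p = 0.0567) and Col4a2 at -0.74 (SE 0.23, interval -1.26 to -0.22, adjusted p = 0.0823) from the authors' deposited table. Both were called with the trend of fold change on transcript GC content and length removed, with adjusted p of 0.0396 and 0.0464. In that setting 22 collagens were lower, against 4.27% of all genes. On chromosome 8 the annotated genes overlap by 22 bases at their starts, and they are known to share a bidirectional promoter. The sources used here do not give the strand setting of the counting, so reads from the overlap cannot be assigned. The Col4a2 window (chr8:11312555-11312854, plus strand, GRCm38.p6) is shown because it holds the starts of both genes, with the same motifs in capitals.
Col4a2: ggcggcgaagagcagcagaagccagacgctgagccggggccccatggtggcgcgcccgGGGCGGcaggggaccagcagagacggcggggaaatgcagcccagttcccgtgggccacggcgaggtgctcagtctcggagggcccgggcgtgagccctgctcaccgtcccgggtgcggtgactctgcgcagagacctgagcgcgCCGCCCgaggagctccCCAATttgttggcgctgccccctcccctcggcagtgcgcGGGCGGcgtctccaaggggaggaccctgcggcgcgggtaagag
It held GC boxes at -192, -48 and 8 and a CCAAT match at -32.

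The remaining collagens of basement membranes and short-chain networks were split. Col15a1, a multiplexin of vascular and muscle basement membranes, fell 2.59-fold in the authors' deposited table (log2 change -1.37 with an SE of 0.23, adjusted p = 0.00873). Col18a1, the other multiplexin and the precursor of endostatin, stood at 0.10 (SE 0.18, adjusted p = 0.758), and the intervals of the multiplexins did not overlap. Col8a1, a short-chain collagen of vessel walls, fell 2.02-fold (log2 change -1.02 with an SE of 0.12, adjusted p = 0.00174), whereas Col8a2 stood at -0.42 (SE 0.20, adjusted p = 0.235) from the authors' deposited table. Their intervals overlapped. Col28a1, a type VI relative known from peripheral nerve, fell by 0.69 (SE 0.15, adjusted p = 0.0243), and Col26a1 stood at -1.37 (SE 0.37, adjusted p = 0.053) from the authors' deposited table. Col28a1 did not pass against a 1.2-fold change (adjusted p = 0.219).

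Among FACIT collagens 1 of 7 was called, where 8.13% of all genes were called in either direction. Col14a1, which binds decorin-coated fibrils, fell 2.01-fold in the authors' deposited table (log2 change -1.01 with an SE of 0.21, adjusted p = 0.0213). Against a 1.2-fold change it did not pass (adjusted p = 0.112). Its relatives Col12a1 (log2 fold change 0.13, adjusted p = 0.772), Col20a1 (-0.19, 0.309) and Col22a1, a collagen of muscle to tendon junctions (-0.27, 0.279), were not called. Col16a1 stood at -0.23 with a narrow interval (-0.44 to -0.02, adjusted p = 0.155) from the authors' deposited table. It stood at -0.40 and was called (adjusted p = 0.0336) once the GC and length trend was removed. The cartilage chains Col9a3 (0.70, adjusted p = 0.186) and Col9a2 (-0.20, adjusted p = 0.727) had low means of 0.06 and -0.98 log2 CPM. Exons of Col9a3 and Tcfl5, on the other strand, overlap by 234 bases, and whether its value holds reads of Tcfl5 was not tested.

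Col17a1 and Col7a1, which join basal keratinocytes to the tissue beneath, did not pass. Col17a1, the transmembrane collagen of hemidesmosomes, had a log2 change of 0.13 (with an SE of 0.13, interval -0.16 to 0.42, adjusted p = 0.567) from the authors' deposited table. Col7a1, the anchoring fibril chain, stood at 0.23 (SE 0.22, interval -0.27 to 0.73, adjusted p = 0.556). These intervals leave out a 2-fold change in either direction. With the GC and length trend removed, Col17a1 stood at 0.04 and Col7a1 at 0.02, also without a call. Col23a1 stood at 0.21 (SE 0.09, adjusted p = 0.188) and Col25a1, a chain known from neurons, at -0.07 (SE 0.26, adjusted p = 0.89) from the authors' deposited table.

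The only collagen that rose was Col13a1, a transmembrane collagen of cell adhesions and of neuromuscular junctions. In the authors' deposited table it was 3.38-fold higher with doxycycline (log2 change 1.76 with an SE of 0.21, interval 1.28 to 2.24, adjusted p = 0.00235). Its mean was 1.94 log2 CPM, and it passed against a 1.2-fold change as well. Col13a1 lies on chromosome 10 from 61838236 to 61979108 on the minus strand of GRCm38. Its promoter window (chr10:61979059-61979358, GRCm38.p6) is shown 5′ to 3′ on the minus strand as the counterpart to Col3a1, the largest called decrease. The window held 1 match, TATAAA at -237, and whether this match acts as a TATA box was not tested.
Col13a1: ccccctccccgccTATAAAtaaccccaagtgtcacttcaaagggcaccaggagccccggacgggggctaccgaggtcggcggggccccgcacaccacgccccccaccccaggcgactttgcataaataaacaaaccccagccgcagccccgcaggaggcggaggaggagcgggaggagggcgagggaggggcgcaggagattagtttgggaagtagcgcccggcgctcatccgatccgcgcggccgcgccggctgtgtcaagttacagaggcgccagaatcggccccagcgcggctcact

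Expressed per kilobase of exon, the family covered a wide range of levels, from 6.59 log2 CPM per kb (Col17a1) down to -4.37 (Col6a5). After Col17a1 came Col3a1 (5.81), Col4a1 (5.29), Col4a2 (4.93), Col6a1 (4.84), Col1a1 (4.67) and Col1a2 (4.51) on this scale, all as means over both groups. These means carry no error in the authors' deposited table, so the order of close neighbours is not resolved. The order also depends on the length used. All annotated exons of Col1a2 together span 12426 bases, against 5348 in its longest transcript. Of 22 collagens whose mean reached 4 log2 CPM, 12 fell and 0 rose, and of 17 below it, 6 fell and 1 rose. For all genes, 339 of 8367 and 331 of 7173 fell in these ranges. The collagens had larger errors than most genes: their median SE was 0.21 on the log2 scale, against 0.12 over all genes.

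**Figure D3:**
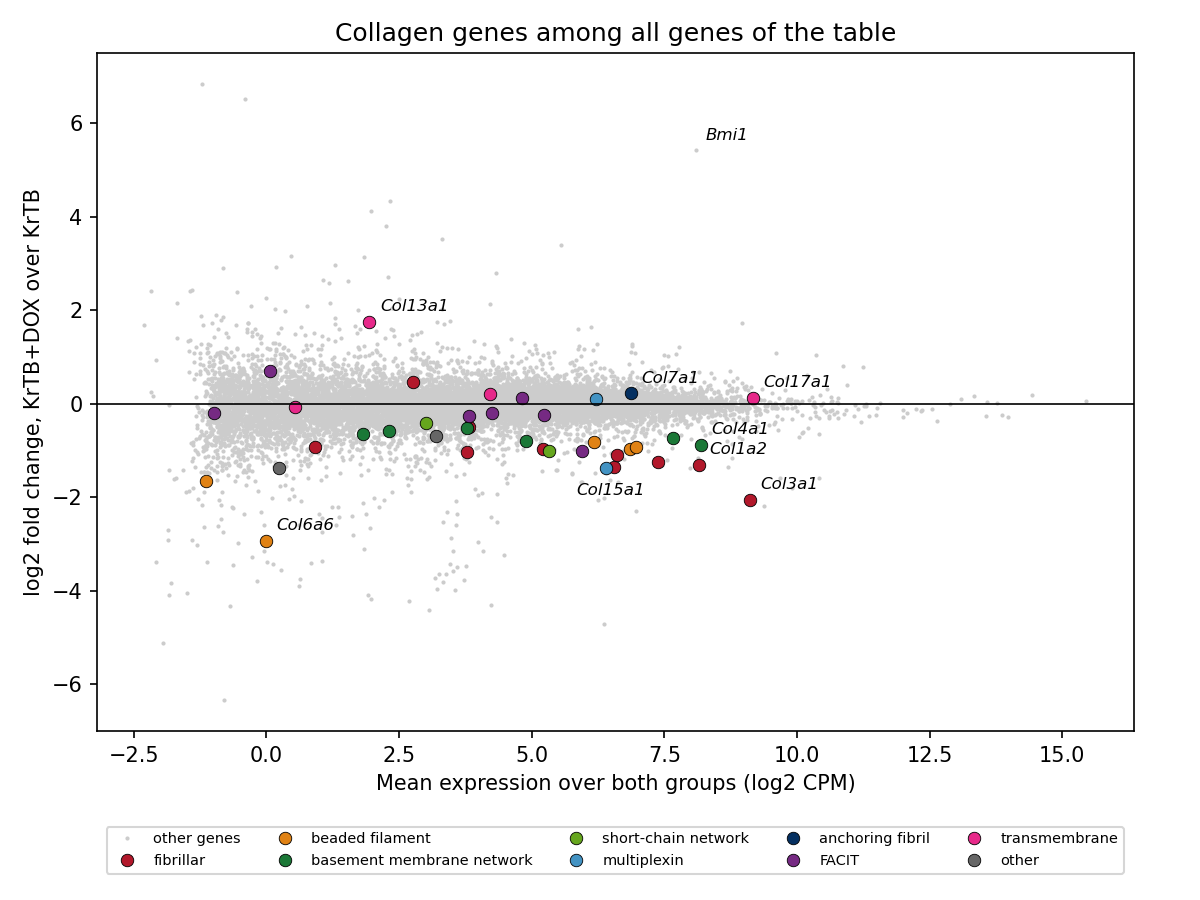
Log2 fold change (KrTB+DOX over KrTB) against mean expression in log2 CPM over both groups, for all genes (grey) and collagen genes coloured by class. Col3a1 at -2.05 and Col17a1 at 0.13 lie at nearly the same horizontal position (9.11 and 9.18), and Bmi1, the induced gene, stands at 5.42.

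The samples held RNA of muscle and connective tissue genes beside that of the labelled epithelium. Per kilobase, with means from the authors' deposited table, the suprabasal keratins Krt4 and Krt13 stood at 12.78 and 13.11 log2 CPM per kb. The basal keratins Krt5 and Krt14 stood at 9.81 and 10.05, the muscle genes Myh4 and Acta1 at 10.97 and 12.03, and the fibroblast proteoglycan Dcn at 6.90. Of 12 fibroblast markers 3 fell and 0 rose, where 4.31% of all genes fell and 3.82% rose. Their median log2 fold change was -0.43 (range -0.95 to 0.16), and all of them were detected, at means from 3.62 to 9.44 log2 CPM. Lum (-0.83, adjusted p = 0.0167), Fap (-0.95, 0.0144) and Mfap5 (-0.93, 0.0168) fell, while Dpt (-0.61, 0.0556) and Dcn (-0.15, 0.518) were not called in the authors' deposited table. Basal keratinocyte markers had a median of 0.40, with 3 of 9 higher (Cdh3, Trp63 and Krt15) and 0 lower. Of 8 suprabasal markers, median -0.23, Sprr3 fell (-2.19, adjusted p = 0.0181). Of 9 endothelial markers only Cdh5 fell (-0.38, adjusted p = 0.0407), and the mural cell, skeletal muscle and Schwann cell lists, with 8, 9 and 7 members, had 0 calls in the authors' limma test. At an unadjusted p under 0.05 these 3 lists had 1, 3 and 1 members, against the 25.2% of all genes, and their medians were 0.00, -0.27 and -0.30. All 9 skeletal muscle markers lay below 0 (-0.60 to -0.14). So did 4 of 8 mural and 4 of 7 Schwann cell markers, against 51.2% of all genes. The immune list had 1 call of 7 (Cd68, -0.60, adjusted p = 0.0264). Of 7 cartilage markers 2 had a value, Sox9 (2.72, adjusted p = 0.001), which other tissues also express, and Comp. In such bulk RNA fewer cells of a type and less RNA per cell cannot be told apart, and the part of these marker shifts in the collagen values was not tested. Sums of these markers in each library were not analysed here.

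Genes that fold and modify collagen inside the cell had a median log2 fold change of -0.15. Of 24 such genes 1 rose and 1 fell, where 3.82% of all genes rose and 4.31% fell. Below 0 lay 17 and above it 7, where 51.2% of all genes lay below 0. An unadjusted p under 0.05 was found for 10, against 25.2% of all genes. P4ha2, a catalytic subunit of the prolyl hydroxylase that stabilises the helix, rose 1.42-fold (adjusted p = 0.0225), and Colgalt2, a galactosyltransferase of hydroxylysine, fell 1.42-fold (adjusted p = 0.0317) from the authors' deposited table. The collagen chaperone Serpinh1 (log2 fold change -0.22, adjusted p = 0.427) and the hydroxylase subunit P4hb (-0.15, 0.324) were not called. In the list of propeptide removal and cross-linking genes, 3 of 13 fell and 0 rose (median -0.44). That count includes Fkbp7, which was placed in this list by hand though it acts inside the cell. Loxl2, a lysyl oxidase that cross-links type IV and other collagens, fell 2.87-fold (log2 change -1.52 with an SE of 0.20, adjusted p = 0.00368) from the authors' deposited table. Its relatives Loxl1 (-0.79, adjusted p = 0.102), Loxl3 (-0.44, 0.273), Lox (-0.02, 0.949) and Loxl4 (0.21, 0.65) were not called. The other called decreases were the protease Tll2 (-1.11, adjusted p = 0.0412, mean -0.07 log2 CPM) and Fkbp7, a prolyl isomerase of the endoplasmic reticulum rather than a cross-linking enzyme (-0.54, adjusted p = 0.0402). The procollagen protease Bmp1 (-0.09, adjusted p = 0.628) and its enhancer Pcolce (-0.62, adjusted p = 0.062) were not called. Of the 13 genes in this list, 12 lay below 0.

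Proteins that coat or organise fibrils included 3 decreases among 15 (median -0.31), where 4.31% of all genes fell. Sparc, a collagen-binding matricellular protein, fell 2.25-fold (log2 change -1.17 with an SE of 0.14, adjusted p = 0.00221), and the proteoglycans Bgn (-0.75, adjusted p = 0.014) and Lum fell as well in the authors' deposited table. Fn1, the fibronectin on which fibrils are laid down, stood at -0.80 (adjusted p = 0.0571). Of 22 basement membrane partners 7 fell and 0 rose (median -0.37). They were Nid1 (log2 fold change -0.78), the collagen IV cross-linking peroxidase Pxdn (-0.74), Lama2 (-0.65), Lamc1 (-0.59), Frem2 (-0.58), Fras1 (-0.57) and the perlecan gene Hspg2 (-0.55) from the authors' deposited table. The hemidesmosome genes Dst (0.03, adjusted p = 0.887) and Itgb4 (0.15, 0.298) were not called, nor was the laminin chain gene Lamb2 (-0.06, 0.757).

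Among 11 collagen receptors 1 rose and 0 fell (median -0.17), where 3.82% of all genes rose and 4.31% fell. Adgrg1, an adhesion receptor known to bind type III collagen, was 2.44-fold higher (log2 change 1.29 with an SE of 0.13, adjusted p = 0.00116) from the authors' deposited table, in which Col3a1 was 4.16-fold lower. The fibroblast collagen receptor Ddr2 stood at -0.62 (adjusted p = 0.0504), the integrin chain Itgb1 at -0.17 (0.162) and the hyaluronan and collagen receptor Cd44 at 0.11 (0.645). Of 16 genes for collagen-degrading proteases and inhibitors 4 fell and 0 rose (median -0.14). These were the collagen-degrading cathepsin Ctsk (-0.95, adjusted p = 0.00581), Fap, Mmp16 (-0.96, adjusted p = 0.00986) and Mmp15 (-0.28, adjusted p = 0.0426) from the authors' deposited table. The inhibitors Timp2 (-0.11, adjusted p = 0.723) and Timp3 (0.32, 0.0763) were not called. Of 16 ligands, receptors and targets of TGF-beta, a cytokine that raises collagen expression in fibroblasts, 1 rose and 2 fell (median 0.02). Smad7, an inhibitory target, rose 1.71-fold (adjusted p = 0.00235), and the microfibril gene Fbn1 fell 3.10-fold (adjusted p = 0.00748) and Tgfbi 1.43-fold (adjusted p = 0.0473) from the authors' deposited table. Ccn2, listed there under its older symbol Ctgf, stood at 0.21 (adjusted p = 0.512) and Tgfbr2 at -0.01 (0.982). Of the 12 fibroblast markers, 4 stand in these lists as well, among them Lum and Fap.

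**Figure D4:**
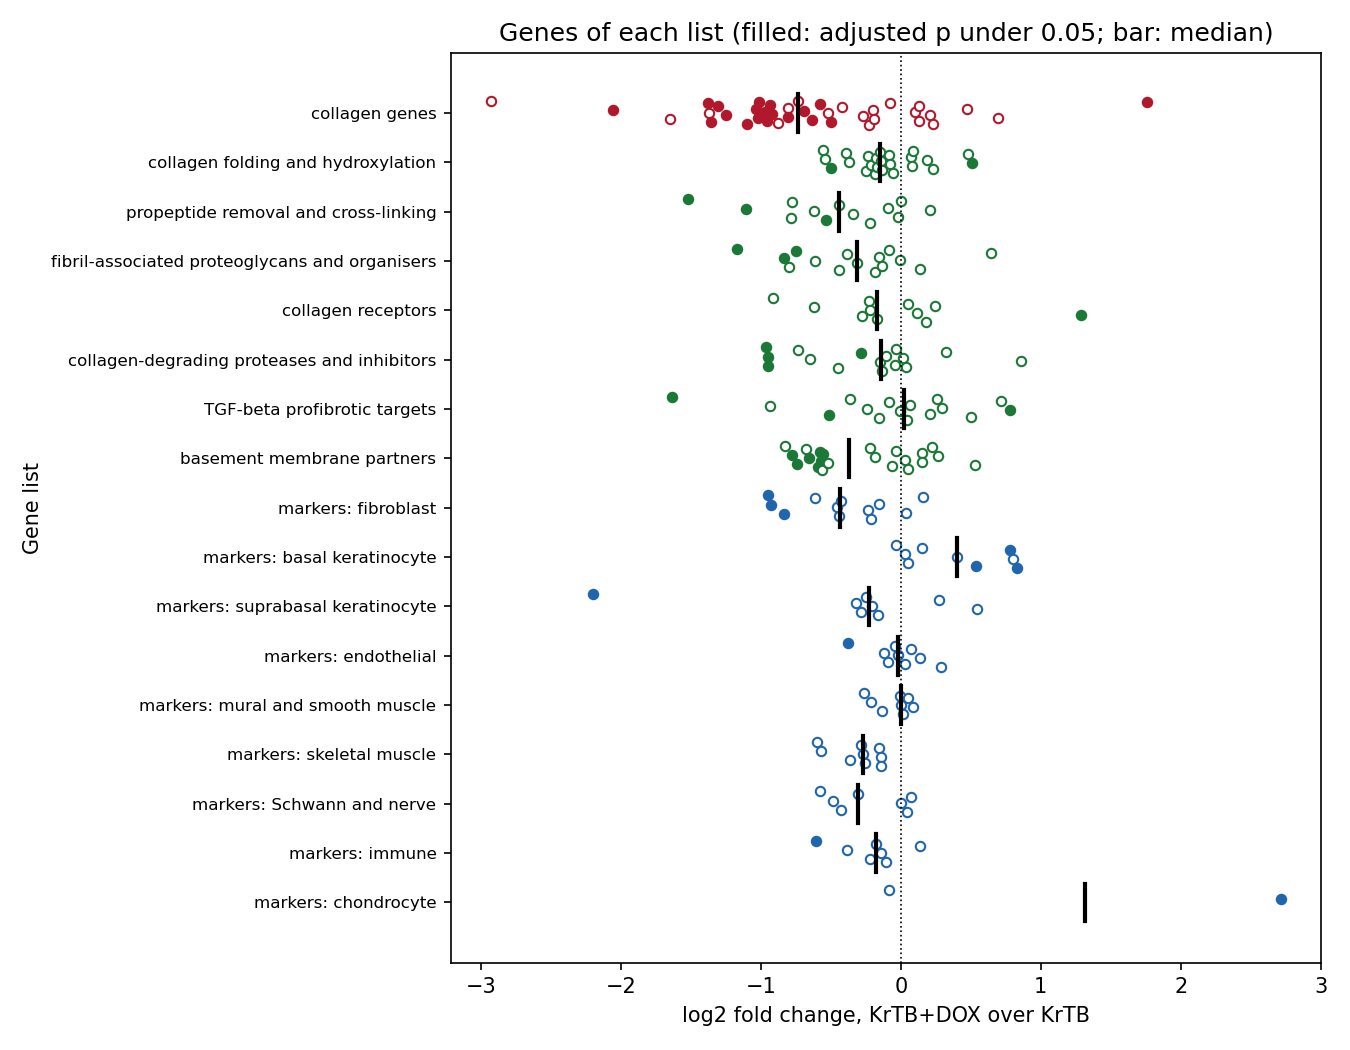
Log2 fold change (KrTB+DOX over KrTB) of each measured gene in the collagen family (red), in 7 lists of collagen-related genes (green) and in 9 marker lists (blue), with filled points at an adjusted p under 0.05 and black bars at list medians. The collagen median lies at -0.74, the fibroblast marker median at -0.43 and the basal keratinocyte marker median at 0.40.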

How the data were processed

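RNA was sequenced from 8 libraries, 4 of each group, as 51 bp reads. Per the submitters' processing notes, the tools were bcl2fastq 2.20, cutadapt, STAR 2.5.2b and HTSeq 0.11.2, on GRCm38; strand settings were not given in the sources used here, nor were multimapping settings. The authors deposited 1 limma comparison of 15540 genes: log2 fold changes, mean log2 values, the t score, the B score, p-values and adjusted p-values. Of its columns, 0 hold values per library. The means behave as log2 CPM, since they sum to 985251 on the linear scale. The SE was computed as log2 fold change over t, and 95% intervals used 9.76 degrees of freedom found from t and p. Deposited adjusted p-values equalled Benjamini-Hochberg values within 6.4e-15. Nothing says that libraries came from separate mice, so p-values measure the spread between these libraries.

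Members, classes and lists were chosen with earlier results of these data known. The named genes were all called collagens, the highest and most changed of each class, chains that neighbour or assemble, all called genes of each pathway list with its 2 highest uncalled means, and up to 4 markers of smallest p per list. Lox, Loxl1, Loxl3, Loxl4, Ddr2, Itgb4, the abundant markers and other collagens were named after their values were seen. Levels per kb used exon lengths of GENCODE M21 on GRCm38, and 15386 genes had an annotation. Promoter windows came from RefSeq (GRCm38.p6), which had one for 31 of the 39 collagens. The test against a 1.2-fold change and the removal of the GC and length trend were tested on simulated data. Python 3.11.15, numpy 2.4.6, pandas 2.3.3, scipy 1.17.1 and matplotlib 3.10.9 were used.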

Additional observations from a re-analysis of the deposited data

How the results depend on the processing

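The number of collagens lower in KrTB+DOX moved from 18 to 8 at an adjusted p under 0.01 and to 8 when tested against a 1.2-fold change. It was 22 at an adjusted p under 0.1, where 7.72% of all genes were lower, and 17 when genes with means under 1 log2 CPM were left out (4.64%). It was 18 after re-centring (4.19%) and 22 with the GC and length trend removed (4.27%). The median of -0.74 became a mean of -0.64 without weights, a setting added after seeing the data, and of -0.50 when weighted by 1 over the squared SE. Col18a1, not called, turned from 0.10 to -0.056 (adjusted p 0.878) with the GC and length trend removed, and the cause was not tested. That removal lost 0 calls and gained 4: Col4a1, Col4a2, Col16a1 (-0.40, adjusted p 0.0336) and Col26a1 (-1.47, adjusted p 0.0436). Among collagens without a call, Col11a2 moved from 0.47 to 0.27, Col9a2 from -0.20 to -0.34 and Col25a1 from -0.07 to -0.05 there. The single increase, Col13a1, was called under each of the 6 settings that give calls.

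No paired analysis was possible because the deposited table holds no values per library. Leaving out each library was planned and could not be run for the same reason, so whether 1 library decides a value is unknown. Depth is unknown, and Col6a5 and Col6a6, with means under 1 log2 CPM, have the widest intervals of the collagens.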

Other observations

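Several proteins carry a collagen stretch without being named collagens, and these were listed after their values were seen. Of 28 such genes, 23 had a value, 5 fell and 0 rose, at a median log2 change of -0.29, and 21 of 23 lay below 0 in the authors' deposited table. Over all genes 4.31% fell, 3.82% rose and 51.2% lay below 0. C1qtnf3, a secreted C1q and TNF relative, fell 2.94-fold (log2 fold change -1.55, SE 0.11, adjusted p = 0.000157). Its relatives C1qtnf2 (2.34-fold, adjusted p = 0.00812) and C1qtnf6 (2.17-fold, adjusted p = 0.0186) also fell, as did the elastic fibre protein Emilin1 (-0.74, adjusted p = 0.0296) and the ectodysplasin gene Eda (-0.70, adjusted p = 0.0412). The complement chains C1qa (-0.22), C1qb (-0.12) and C1qc (-0.29), made by macrophages, were not called in the authors' deposited table. Col4a3bp matches a collagen symbol only in its beginning and encodes a ceramide transfer protein. It stood at 0.12 (adjusted p = 0.449).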
